A study of Homo sapiens with 16 samples.

Results

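Peaks of DNMT3B and OCT1 whose first listed chromatin state was a weak promoter or a poised promoter were described in MCF10CA1a cells. There were 2391 such peaks, 1883 in weak promoters and 508 in poised promoters, of 103498 peaks on chromosomes 1 to 22 and of 118439 peaks listed in all. Peaks starting in 4 crowded windows of chromosomes 8, 9, 10 and 17, each 2 or 3 Mb long, were left out. MCF10CA1a is an invasive breast cancer cell line of the MCF10A lineage, whose mammary epithelial cells were made tumorigenic with an always-active Harvey-ras and grown in mice. The cells received pterostilbene (PTS) at 7 µM for 9 days or its ethanol vehicle, and DNA bound by DNMT3B or OCT1 was recovered by chromatin immunoprecipitation (ChIP) and sequenced. Each antibody had 3 biological replicates and 1 input library per treatment, and the comparison asked where PTS changed binding. The 4 peak lists, 1 for each antibody and treatment, pool the 3 replicates, so there is no replicate error. Every interval given is a 95% interval. Those of single pileup ratios cover the counting error of pooled reads only. Those of shares and medians treat peaks or regions of pooled lists as independent draws, so they hold no spread between replicates. The states were drawn in HMEC, normal human mammary epithelial cells, so no promoter state was measured in the cells studied.

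DNMT3B is a DNA methyltransferase that sets new methylation marks on CpG sites, and CpG methylation of a promoter usually goes with its silencing. OCT1, the product of POU2F1, is a widely expressed transcription factor that binds the octamer ATGCAAAT and acts on histone, small nuclear RNA and many other genes. Poised promoters carry an activating histone mark together with the repressive mark of Polycomb proteins, and are best known at genes of embryonic development that are silent but inducible. Weak promoters carry less of the activating marks than active promoters do.

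The sequences that follow are of GRCh37/hg19, plus strand, 5′ to 3′, and lie outside annotated exons. The first pair shows dinucleotide runs under strong DNMT3B peaks of poised promoters, with the longest run of a repeated unit in capitals. KCNH2, a cardiac potassium channel gene, has a run of 39 bases at chr7:150675919-150676078, and LRP2, an endocytic receptor gene chosen after its values were seen, a run of 59 bases at chr2:170221067-170221226. The LINC01115 window at chr2:740413-740572 is the weak promoter that passed the minimum in all 4 lists without a near-identical copy elsewhere. A word of 22 bases, in capitals, occurs 3 times in this window and 8 times in the OCT1 peak around it. The LHX4 window at chr1:180200324-180200483 shows a poised promoter of a developmental regulator, with its 10 CpG sites in capitals. The last 3 windows are from weak promoter OCT1 peaks of PTS-treated cells and hold the octamer ATGCAAAT or its reverse complement ATTTGCAT, in capitals. They lie at chr9:19229803-19229862 for DENND4C, chr5:153569819-153569878 for GALNT10 and chr5:141072186-141072245 for ARAP3. At DENND4C the octamer crosses the edge of the PTS peak.
KCNH2: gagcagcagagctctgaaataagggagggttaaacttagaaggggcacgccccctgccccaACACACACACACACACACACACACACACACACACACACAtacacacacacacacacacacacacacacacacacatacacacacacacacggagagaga
LRP2: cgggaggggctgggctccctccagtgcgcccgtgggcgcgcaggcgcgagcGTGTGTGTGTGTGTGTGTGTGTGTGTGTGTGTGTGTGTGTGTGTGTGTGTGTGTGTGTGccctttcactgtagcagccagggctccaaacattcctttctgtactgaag
LINC01115: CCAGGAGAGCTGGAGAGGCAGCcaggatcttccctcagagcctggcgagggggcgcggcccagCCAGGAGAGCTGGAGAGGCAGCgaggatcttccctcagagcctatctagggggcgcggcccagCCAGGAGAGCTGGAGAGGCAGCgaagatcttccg
LHX4: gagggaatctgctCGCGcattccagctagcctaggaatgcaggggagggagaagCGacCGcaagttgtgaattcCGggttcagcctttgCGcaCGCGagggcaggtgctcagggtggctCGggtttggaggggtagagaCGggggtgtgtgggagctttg
DENND4C: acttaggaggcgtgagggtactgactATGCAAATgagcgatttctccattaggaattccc
GALNT10: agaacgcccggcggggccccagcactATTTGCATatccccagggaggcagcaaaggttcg
ARAP3: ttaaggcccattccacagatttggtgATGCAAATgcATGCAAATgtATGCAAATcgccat

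The value of a peak was its pileup, the number of pooled fragments of 200 bp over the summit. Pileups of PTS-treated cells had been scaled to the depth of vehicle, so that 1 read counted 0.913 for DNMT3B and 0.990 for OCT1. The pooled depth computed from the background for DNMT3B was about 43200000 reads in vehicle and 47300000 in PTS, and for OCT1 47200000 and 47700000. The lists start at different pileups, so pileups and shares of members were compared between treatments only at a pileup of 13 or more. Sequence features are given over all listed peaks unless a minimum is named. Of the members, 7 peaks of DNMT3B vehicle, 1 of DNMT3B PTS, 59 of OCT1 vehicle and 0 of OCT1 PTS lay below that minimum. The nearest values under it were 12 in the vehicle lists and 12.8 in the DNMT3B PTS list, and the nearest from it upwards were 13 in the vehicle lists, 14.6 in the DNMT3B PTS list and 13.8 in the OCT1 PTS list. Above 13 the lists still differ in how completely they list peaks, so a region that is not listed is not shown to lack signal. The deposited descriptions call the lists enriched in vehicle or enriched in PTS. How peaks were selected into them could not be worked out. Whether that selection lowers the number of regions listed in both treatments was not tested. Chromosomes 1, 3, 5 and 9 hold 26.7% of the autosomal bases but held 74.2% of the DNMT3B members of vehicle, 82.9% of those of PTS, 54.1% of the OCT1 members of vehicle and 82.5% of those of PTS, as did 56.8% to 78.2% of all peaks of the lists.

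Weak and poised promoters took a small share of every list, and for OCT1 this share was lower in PTS-treated cells. Members were 225 of 12305 listed DNMT3B peaks of vehicle (1.83%, 1.61 to 2.08), 41 of 2697 of PTS (1.52%, 1.12 to 2.06), 1942 of 76269 OCT1 peaks of vehicle (2.55%, 2.44 to 2.66) and 183 of 12227 of PTS. Among peaks with 13 or more, OCT1 members were 1883 of 73716 in vehicle and 183 of 12212 in PTS, a share lower by 1.06 points in PTS, with an interval of the difference (Newcombe) from −1.29 to −0.799 points. DNMT3B members were 218 of 11823 and 40 of 2693, a difference of −0.359 points with an interval from −0.829 to 0.219, which includes 0. Over all listed peaks of vehicle the OCT1 share was above the DNMT3B share by 0.718 points (0.443 to 0.968), and in PTS the antibodies differed by −0.0235 points (−0.595 to 0.436).

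The lower OCT1 share came with fewer weak promoter peaks, and the poised share depended on sequence copies. At 13 or more, the weak share of OCT1 was 2.01% in vehicle and 1.06% in PTS, with an interval of the difference from −1.15 to −0.729 points, and the poised share was 0.540% and 0.434%, a difference of −0.106 points (−0.222 to 0.0365). Of the members, 398 of 1883 were poised in vehicle (21.1%) and 53 of 183 in PTS (29%), a difference of 7.83 points (1.45 to 15.0). A near-identical copy is an alignment of the whole peak elsewhere in the genome, at 90% identity or more over 80% or more of its length. Without peaks that have one, an alternative chosen after seeing the data, 352 of 1790 OCT1 members of vehicle (19.7%) and 28 of 148 of PTS (18.9%) were poised, a difference of −0.746 points (−6.56 to 6.54), and the poised share of all peaks was lower in PTS by 0.247 points (−0.343 to −0.122). For DNMT3B, 33 of 218 members of vehicle (15.1%) and 11 of 40 of PTS (27.5%) were poised, a difference of 12.4 points (−0.227 to 28.2). Peaks could carry several states, and 95, 17, 725 and 78 listed members of DNMT3B vehicle, DNMT3B PTS, OCT1 vehicle and OCT1 PTS also carried a state other than the one that placed them.

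**Figure D1:**
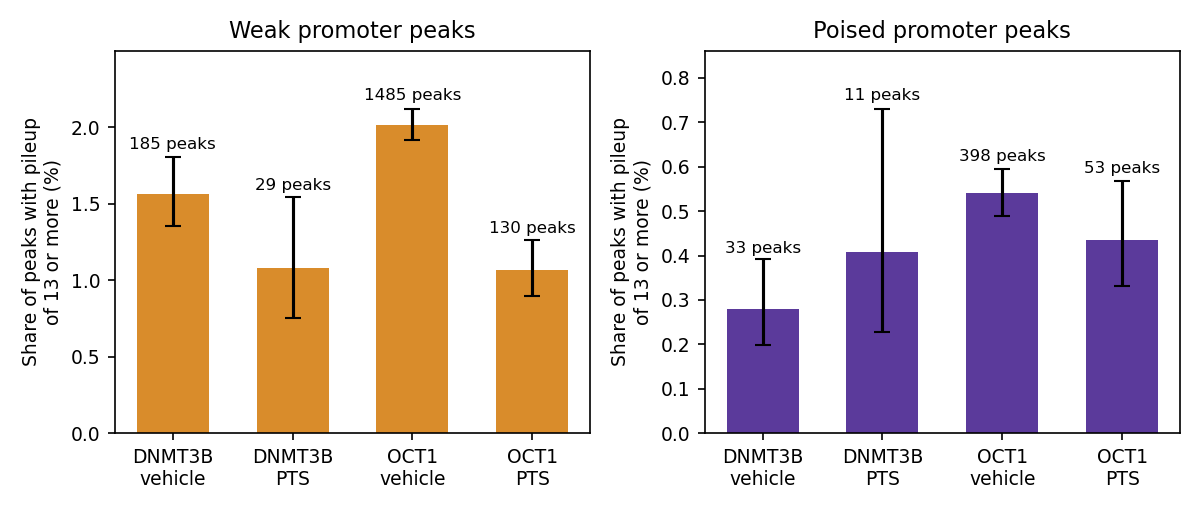
Share of the peaks with a pileup of 13 or more in each list (vertical axis, percent) that lay in weak (left) or poised (right) promoters, with the number of peaks above each bar and Wilson 95% intervals as error bars. The weak share of OCT1 was 2.01% in vehicle and 1.06% in PTS, while the poised shares of OCT1, 0.540% and 0.434%, have intervals that overlap.

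The peaks bore the sequence features of promoters. Of the weak promoter peaks of OCT1 in vehicle, 74.3% had their middle within 1 kb of an annotated start site, against 94.6% of active promoter peaks and 13.3% of peaks in other states. For poised promoters the share was 64.4%, which was 9.96 points below weak promoters (−15.2 to −4.94). For DNMT3B in vehicle the shares were 72.3% for weak, 61.8% for poised, 90.2% for active and 10.8% for other states. In windows of 300 bases around the middle of the peak, the median GC content of OCT1 peaks of vehicle was 61.3% for weak and 64.7% for poised promoters, against 52.7% for other states.

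Poised promoter peaks of OCT1 were richer in CpG sites than weak ones, while for DNMT3B the states could not be told apart. The number of CpG sites over that expected from the base composition had a median of 0.684 in OCT1 poised peaks of vehicle (0.660 to 0.708) and 0.582 in weak ones (0.564 to 0.597). For DNMT3B of vehicle the medians were 0.397 for poised (0.283 to 0.640) and 0.498 for weak promoters (0.443 to 0.532), with intervals that overlap. In the PTS lists the medians were 0.530 for poised and 0.488 for weak peaks of OCT1, and 0.247 and 0.526 for those of DNMT3B, and the intervals of each pair overlap as well. Active promoter peaks lay at 0.599 to 0.721 in the 4 lists and other states at 0.195 to 0.230.

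**Figure D2:**
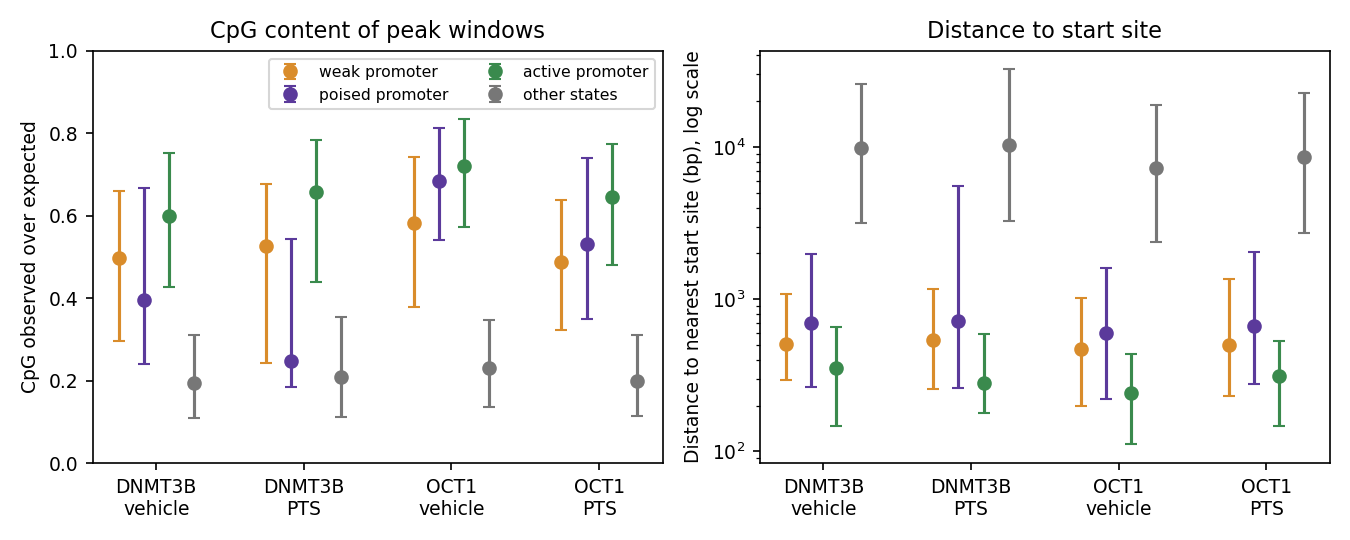
CpG observed over expected (left) and distance from the middle of the peak to the nearest start site in bp on a log scale (right), by list and chromatin state; points are medians and bars the quartiles over peaks. Poised OCT1 peaks of vehicle lie above weak ones in CpG content (0.684 and 0.582), poised DNMT3B peaks below (0.397 and 0.498), and all promoter states are far closer to start sites than other states.

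Many poised promoter peaks lay in sequence that the genome holds more than once. A near-identical copy was found for 11.5% of the poised and 3.20% of the weak peaks of OCT1 in vehicle, a difference of 8.27 points (5.35 to 11.8). In the OCT1 list of PTS the shares were 47.2% and 7.69%, a difference of 39.5 points (25.4 to 53.1). For DNMT3B they were 29.4% and 6.81% in vehicle, a difference of 22.6 points (9.25 to 39.6), and 36.4% and 20% in PTS, a difference of 16.4 points whose interval (−11.0 to 46.5) includes 0. Copies were not particular to members. Peaks outside promoter states had one in 11.4% for DNMT3B in vehicle and 27.5% in PTS, and for OCT1 in 5.28% and 10.7%. These shares lie above those of weak peaks and below those of poised peaks. Reads of such copies cannot be placed surely, and which copy was bound cannot be told apart.

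Tandem repeats of units of up to 6 bases were frequent among the strong DNMT3B members of vehicle. Runs of at least 24 bases were found in 11.8% of poised and 3.66% of weak DNMT3B peaks of vehicle, but in 0.488% and 0.718% of those of OCT1. Peaks outside promoter states had them in 4.83% for DNMT3B and 1.47% for OCT1 in vehicle. Among DNMT3B members of vehicle with 13 or more, the 11 with a tandem repeat had a median pileup of 21, and 7 of them reached 20. The 23 with a near-identical copy had a median of 19, and 10 reached 20. Of the 187 with neither, 10 reached 20 (5.35%, 2.93 to 9.56), and their median was 15. For OCT1 in vehicle, 33 of 93 members with a copy reached 20 (35.5%, 26.5 to 45.6), against 131 of 1781 with neither (7.36%, 6.23 to 8.66) and 2 of 11 with a tandem repeat. In the DNMT3B list of PTS 1 of 40 members had a tandem repeat, and 3 of 10 with a copy reached 20 (30%, 10.8 to 60.3), beside 9 of 29 with neither (31%, 17.3 to 49.2). In the OCT1 list of PTS 17 of 35 with a copy did (48.6%), against 20 of 148 with neither (13.5%). The part of repeats in these pileups was not tested.

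The OCT1 octamer was rare in the members. ATGCAAAT, searched on both strands as ATGCAAAT or ATTTGCAT with no overlap between its matches, was in the 300-base window of 6 of 1532 weak promoter peaks (0.392%) and 2 of 410 poised ones (0.488%) of OCT1 in vehicle. In all OCT1 peaks of vehicle the share was 0.843%, and in 35116 RefSeq promoters of the same length (GRCh38.p14) it was 1.77%. In PTS-treated cells 3 of 130 weak promoter peaks had it in that window (2.31%) and 0 of 53 poised ones, beside 1.16% of all OCT1 peaks. These are the DENND4C, GALNT10 and ARAP3 windows printed above. The DENND4C region had an OCT1 pileup of 24 in vehicle and 19.8 in PTS, the ARAP3 region 22 and 17.8, while the GALNT10 region was not listed in vehicle and had 18.8 in PTS. Over the ARAP3 window, 3 octamers stand in a row. Over all listed members, with vehicle peaks under 13 included, the share was 1.64% in PTS (3 peaks) and 0.412% in vehicle (8 peaks). The difference was 1.23 points (0.0758 to 4.30), beside 0.318 points over all OCT1 peaks (0.131 to 0.533). The DENND4C and ARAP3 regions count among the 3 peaks of PTS but not among the 8 of vehicle, although their vehicle pileups were higher. The window follows the middle of each peak, so the same region can count in 1 treatment only. The difference therefore does not show that octamer regions were gained in PTS. The shares were 1.09% and 0.515% when whole peaks were searched, and 2.73% and 2.11% with the shorter word ATGCAAA. The separate intervals of each pair overlap. Among the vehicle peaks with the octamer were those of PCDHB5, a protocadherin gene, and SSB, which encodes the La protein of small RNA processing, with pileups of 16 and 13.

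Most members stood close to the minimum. Of 218 DNMT3B members of vehicle with 13 or more, 69 had a pileup of 13 to under 15, 84 of 15 to under 17, and 24 reached 20. In the DNMT3B list of PTS, 13 of 40 reached 20. For OCT1, 166 of 1883 members of vehicle and 37 of 183 of PTS reached 20. The highest pileups were 37 and 37.4 for DNMT3B in vehicle and PTS, and 44 and 47.5 for OCT1. The peak with 47.5 carries the name of LOC654342 and overlaps a higher vehicle peak whose first state is not a promoter, so it enters the counts of peaks but not the regions below.

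For the comparison of treatments, overlapping peaks of an antibody were joined into a region, which took the state of its highest peak. The strongest weak promoter regions of DNMT3B lay at a non-coding RNA gene, an exon junction gene and a scaffold gene. At LINC01410 (chr9:66456380-66458672, an exon, 1 near-identical copy) the pileup was 35 in vehicle and 37.4 in PTS, a ratio of PTS over vehicle of 1.07 (0.665 to 1.73). CASC3, which encodes a core protein of the exon junction complex, had 33 in vehicle and was not listed in PTS (chr17:38296486-38296816, an exon, with a tandem repeat of 57 bases). PDE4DIP, a gene for a Golgi and centrosome anchor of a phosphodiesterase, had 30 and 27.4 (chr1:145074743-145076350, an intron). The exact intervals of the ratio, from whole reads against the depth, are wide at such counts.

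Among poised promoters, KCNH2 had the highest DNMT3B pileup, 37 in vehicle and 32 in PTS (chr7:150675860-150676194, intergenic, 618 bp from a start site), over the run of AC units printed above. Its ratio was 0.864 (0.528 to 1.41). A region near NBPF1, a gene of the neuroblastoma breakpoint family (chr1:16940819-16941434, intergenic, 5 copies), had 30 and 27.4. A region named after LOC101927429, 21525 bp away, had 28 and 21.9 (chr1:148853785-148854515, an annotated exon). PRDM6, a gene for a chromatin regulator of smooth muscle, had 28 in vehicle and was not listed in PTS (chr5:122424793-122425027, an exon, with a repeat of 65 bases). MST1L had 25 in vehicle and was likewise not listed (chr1:17091563-17091808, an intron). The LRP2 region had 21 in vehicle and was not listed in PTS.

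Few DNMT3B regions of weak and poised promoters reached 13 in both treatments. Of weak regions with 13 or more in vehicle, 9 of 182 also reached 13 in PTS (4.95%, 2.62 to 9.13), and of poised regions 5 of 32 (15.6%, 6.86 to 31.8). Together 14 of 214 did (6.54%) and 200 did not, while 87.7% of all 11744 DNMT3B regions of vehicle did not and 12.3% did. The share of members that reached 13 was 5.84 points below that of the other regions (−8.52 to −1.66), and the difference was −27.5 points at a minimum of 20 and −23 points outside chromosomes 1, 3, 5 and 9. Active promoters had a share of 4.40% (15 of 341). The poised share was 10.7 points above the weak share (0.971 to 27), a difference whose interval included 0 at a minimum of 15 or 20 and without regions that have a copy. When any listed state could make a region a member, members and the rest differed by 0.467 points in the other direction.

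The 14 regions were kept because both pileups reached 13, so their ratios cannot show regions where a pileup was lost. The ratio had a median of 0.913 (0.783 to 1.31) and ranged from 0.587 to 1.52, with 9 regions lower and 5 higher in PTS. In 0 of the 14 did the interval of the ratio leave out 1, against 0.208% of all 1442 DNMT3B regions compared, but the intervals are wide, with lower ends from 0.306 to 0.772 and upper ends from 1.10 to 3.21. The highest ratio was at MST1P2, a pseudogene of the MST1 growth factor gene, with 15 in vehicle and 22.8 in PTS, a ratio of 1.52 (0.772 to 3.10). RANBP6, a gene of an importin-like protein, had 16 and 21. The lowest was at LINC01115, with 28 and 16.4, a ratio of 0.587 (0.306 to 1.10). PCDHB14, a protocadherin gene, had 18 and 14.6, and ANKRD18B 17 and 14.6.

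In the other direction, 19 of 33 DNMT3B member regions with 13 or more in PTS did not reach 13 in vehicle, against 42.5% of all such regions. At a pileup of 20 or more in vehicle, 13 of 21 member regions had no PTS peak listed at any pileup, 7 of 12 weak and 6 of 9 poised, against 34.6% of all. The share with a listed PTS peak was 38.1% for members and 65.8% for the rest, a difference of −27.7 points (−45.2 to −6.51). A weak region without one had 23 in vehicle (chr1:171639762-171640201, an annotated exon). It is named after MYOC, the gene of the secreted eye protein myocilin, which lies 17990 bp away.

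For OCT1 the strongest weak promoter region was at ZNF595, a zinc finger gene, with 44 in vehicle and 38.6 in PTS, a ratio of 0.877 (chr4:52745-55561, an intron). MST1P2 had 37 and 30.7 (chr1:16970146-16972715, an intron, 1 copy). LINC01115, named after a gene 38904 bp away, had 34 and 26.7, a ratio of 0.786 (chr2:740052-740933). These 3 regions were lower in PTS by their values, but no interval left out 1. Strong weak promoter regions that were listed in vehicle only were at RNA5S6, a 5S ribosomal RNA gene with 16 copies, at 32 (chr1:228756633-228756993), and at NBPF15, at 28 (chr1:148558141-148558489).

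The 3 strongest poised OCT1 regions lay on chromosomes 1 and 9. LOC100132249 had 33 in vehicle and 24.7 in PTS (chr9:66486734-66487128, intergenic, 2 copies), and the NBPF1 region that DNMT3B also occupied had 29 and 24.7. SRGAP2-AS1, an antisense RNA gene, had 29 in vehicle and was not listed in PTS (chr1:121138077-121138596, an intron).

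OCT1 regions of vehicle rarely reached 13 in PTS in any class, and members did so slightly less often than the rest. Among weak regions 75 of 1475 reached 13 (5.08%, 4.08 to 6.33), and among poised regions 31 of 396 (7.83%, 5.57 to 10.9). Together 106 of 1871 did (5.67%) and 1765 did not, while 92.5% of all 73444 OCT1 regions did not and 7.45% did. Members differed from the other regions by −1.83 points (−2.81 to −0.675), by −9.86 points at a minimum of 20 and by −3.53 points outside chromosomes 1, 3, 5 and 9. At 13 they were at the level of active promoters (151 of 2668, 5.66%). With any listed state counted, members lay 0.932 points above the rest, and among regions with a GC content of 55 to 65%, an alternative chosen after seeing the data, 1.57 points above. The poised share was above the weak share by 2.74 points (0.166 to 5.97). In the other direction, 63 of 169 member regions of PTS did not reach 13 in vehicle, against 53.8% of all.

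The order of weak and poised regions turned with copies. Without a near-identical copy, 12 of 351 poised OCT1 regions reached 13 (3.42%) and 66 of 1428 weak ones (4.62%), a difference of −1.20 points (−3.10 to 1.44). With a copy the numbers were 19 of 45 poised (42.2%) and 9 of 47 weak (19.1%), and 22.8% in the rest. Of DNMT3B members, 6 of 21 with a copy reached 13 (28.6%) and 8 of 193 without (4.15%). Chromosome also moved with the outcome, since 95 of 1021 OCT1 members on chromosomes 1, 3, 5 and 9 reached 13 (9.30%), as did 9.06% of the rest there, and 11 of 850 on the others (1.29%), where the rest had 4.82%. For DNMT3B the members had 6.92% on chromosomes 1, 3, 5 and 9 and 5.45% on the others, and the rest 6.83% and 28.5%. By base composition, 7.12% of members and 5.55% of the rest reached 13 at a GC content of 55 to 65%, but 5.10% and 7.61% did at 45 to 55%. The part of copies, chromosome and base composition in the difference between members and the rest was not tested.

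**Figure D3:**
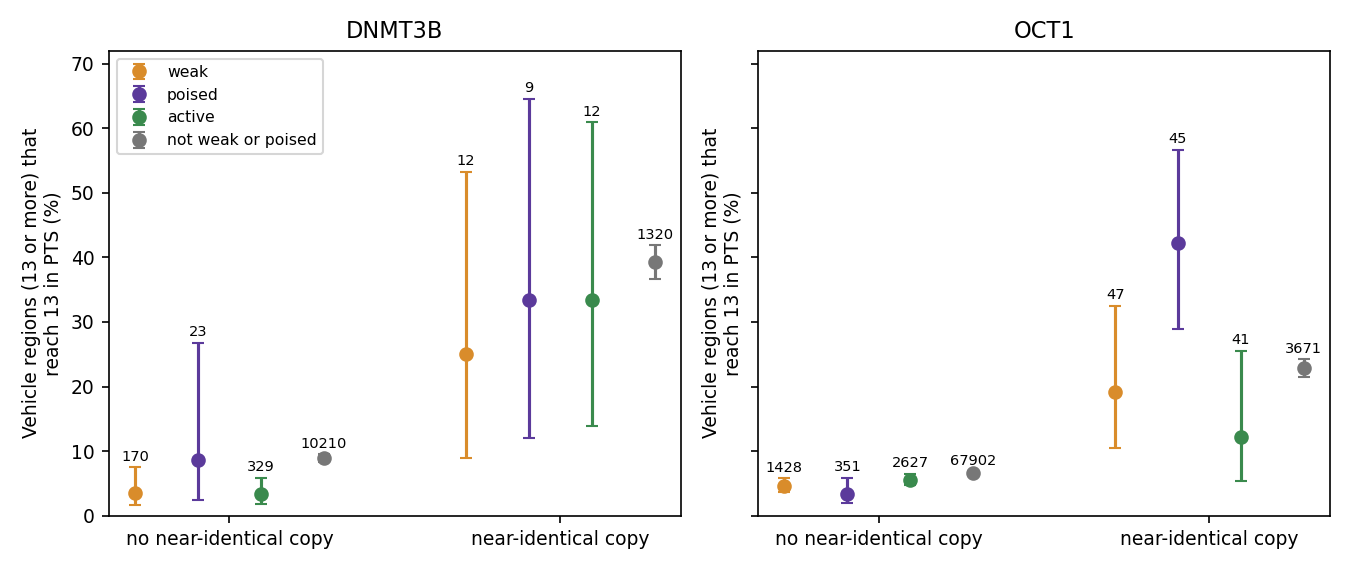
Share of vehicle regions with a pileup of 13 or more that also reached 13 in PTS (vertical axis, percent), for DNMT3B (left) and OCT1 (right), split by near-identical copies; numbers give the vehicle regions and bars are Wilson 95% intervals. Poised OCT1 regions reached 13 in 42.2% with a copy and in 3.42% without, where weak regions had 19.1% and 4.62%.

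Strong poised OCT1 regions were found again more often than strong weak ones. At a pileup of 20 or more in both lists, 11 of 42 poised regions (26.2%) and 9 of 123 weak regions (7.32%) of vehicle reached 20 in PTS, a difference of 18.9 points (6.44 to 34.1), against 22% of the rest and 3.07% of active promoters. All 11 were among the 20 poised regions with a near-identical copy, and 0 of the 22 without a copy reached 20 (0%, 0 to 14.9). Of the weak regions 5 of 13 with a copy and 4 of 110 without did. Of the 165 member regions with 20 or more in vehicle, 124 had no PTS peak listed at any pileup, 99 weak and 25 poised, against 63.3% of all. A PTS peak was listed for 24.8% of members and 37.1% of the rest, a difference of −12.3 points (−18.4 to −5.05).

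Where OCT1 reached 13 in both treatments, single ratios of members could not be told from 1 at this depth, and their median lay slightly under it. The ratio had a median of 0.990 over 106 regions, with an interval from 0.935 to 0.990 that lies just under 1, and the range was from 0.623 to 1.63, with 65 regions lower and 41 higher in PTS. The medians were 0.990 for weak (0.931 to 1.04) and 0.937 for poised regions (0.891 to 1.20). In 0 of the 106 did the interval leave out 1, against 0.347% of all 5472 OCT1 regions compared, at upper ends of the intervals from 1.19 to 3.17. The median over all OCT1 regions was 1.05 (1.04 to 1.05), above that of the members, and for DNMT3B it was 0.982. Without the scaling to depth the median of the members was 1 (0.944 to 1), and its interval also included 1 without copies (0.935 to 1.05). The highest ratio was at a poised region of LOC388692, with 17 in vehicle and 27.7 in PTS, a ratio of 1.63 (0.862 to 3.17), and a weak region in an intron of NBPF1 had 22 and 33.6, a ratio of 1.53 (0.869 to 2.74).

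The gene MLLT3, a leukaemia fusion partner that reads histone acylation, held regions at both ends of the order. A weak region in its intron had 16 in vehicle and 20.8 in PTS (chr9:20620713-20621193), and another just outside the gene had 27 and 16.8, the lowest ratio of the members at 0.623 (chr9:20622931-20623688). Weak regions of PHYKPL, with 25 and 15.8, and of IL17RD, a receptor-like regulator of FGF signalling with 22 and 14.8, followed. WDR38 had 15 and 19.8. Among poised regions the low ratios were at MST1P2 (23 and 16.8), ESPNP (27 and 19.8) and LOC100132249. High ones were at LINC01231 (15 and 20.8) and at a region 32181 bp from MST1L (15 and 19.8). A near-identical copy was present at 28 of the 106 regions, and 95 of them lay on chromosomes 1, 3, 5 and 9.

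**Figure D4:**
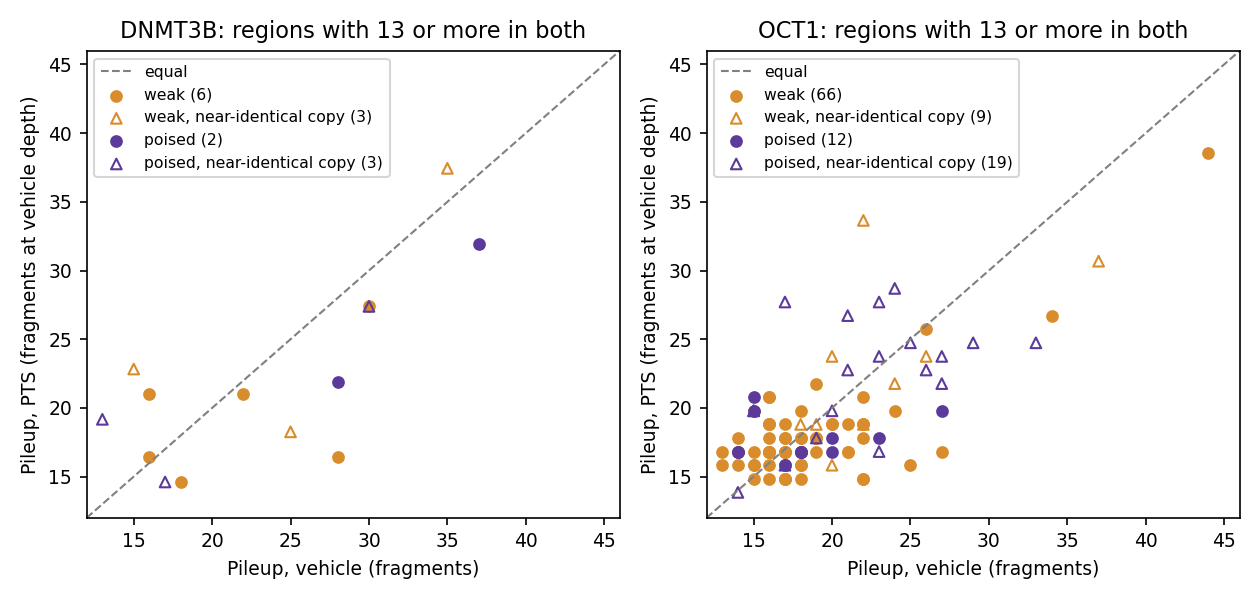
Pileup in PTS-treated cells (vertical axis, fragments at the depth of vehicle) against pileup in vehicle (horizontal axis, fragments) for the 14 DNMT3B and 106 OCT1 member regions with 13 or more in both; open triangles have a near-identical copy and the dashed line marks equal pileups. The points scatter around the line with median ratios of 0.913 and 0.990, and the highest OCT1 point is ZNF595 at 44 and 38.6.

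DNMT3B members often overlapped an OCT1 peak. In vehicle, 93 of 185 weak DNMT3B peaks with 13 or more shared at least 1 base with an OCT1 peak of 13 or more (50.3%), and 23 of 33 poised ones (69.7%). Together this was 53.2% of members, against 56.7% of active promoter peaks and 41.8% of all DNMT3B peaks. In PTS, 19 of 40 members did (47.5%), against 56.4% of all. Seen from OCT1, whose list is longer, 126 of 1883 members of vehicle overlapped a DNMT3B peak (6.69%), against 6.68% of all OCT1 peaks, and 17 of 183 members of PTS (9.29%), against 12.2%.

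The antibodies shared 114 pairs of member regions at any listed pileup, 91 weak for both and 20 poised for both. Of these pairs 4 had 13 or more in all 4 lists, 3 of them with a near-identical copy and 3 on chromosome 1. The share of such pairs over all regions is not given here. Of all vehicle regions, 87.7% for DNMT3B and 92.5% for OCT1 did not reach 13 in PTS. The poised region near NBPF1 had DNMT3B pileups of 30 in vehicle and 27.4 in PTS beside its OCT1 values given above. A weak region 8409 bp from a start site near NBPF1 (chr1:16887115-16887465, 7 copies) had 25 and 18.3 for DNMT3B and 24 and 21.8 for OCT1. A poised region near LOC388692 (chr1:149299351-149299919) had 13 and 19.2 for DNMT3B and 24 and 28.7 for OCT1. LINC01115, without a copy, was the fourth. In it both antibodies had lower values in PTS, but neither interval left out 1. The KCNH2 region had 19 for OCT1 in vehicle and was not listed for OCT1 in PTS.

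Genes of developmental transcription factors had poised promoter peaks, mostly of OCT1, more often than all genes did. Of 171 such genes with any listed peak, 30 had a poised promoter peak of 13 or more in any list (17.5%) and 20 a weak one (11.7%), together 46 (26.9%). Among all 15085 genes with a listed peak, 347 had a poised one (2.30%), 1481 a weak one (9.82%) and 1770 either (11.7%). The poised state is itself best known at developmental genes, and poised promoters without a peak were not counted. The part of OCT1 in the higher poised share was not tested. The 30 genes held 46 poised OCT1 regions. In vehicle 45 of them were listed with 13 or more, at pileups from 13 to 20 and a median of 15, so these were peaks of modest height. In PTS 2 were, and 1 region reached 13 in both. Over all poised OCT1 regions of vehicle, 31 of 396 reached 13 in PTS (7.83%).

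The developmental genes spanned many organs. PITX1, a homeobox gene of hindlimb and pituitary development, had the highest poised pileup, 20 in vehicle in an exon (chr5:134367166-134367534), and a weak region with 19 at its start site (chr5:134368829-134369366). PAX5, the regulator of B cell identity, held 6 poised regions of 13 to 17, and GATA2, a regulator of blood stem cells, 4 of 13 to 15. LHX2, a homeobox gene of forebrain and eye, held 3, of 13 to 18. None of these regions of PITX1, PAX5, GATA2 and LHX2 was listed in PTS, where 92.5% of all OCT1 regions of vehicle did not reach 13. Single poised regions of 14 to 16 lay at or near HAND1 (heart), SIX3 (forebrain), TLX3 (sensory neurons), ZIC2 (midline brain) and FOXE1 (thyroid), and were not listed in PTS either.

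LHX4, a pituitary homeobox gene, held the only poised region of the list with 13 or more in both treatments. Its poised region at chr1:180199988-180200818, whose CpG sites are shown above, had 17 in vehicle and 15.8 in PTS. A region further into the gene was listed only in PTS, with 16.8 (chr1:180201354-180201558), and a weak region at one of its exons only in vehicle, with 21. MSX2, a homeobox gene of skull and mammary development, had the only weak region of the list with 13 or more in both, at 18 and 14.8 (chr5:174151636-174152450). DNMT3B had just 2 regions in these genes, a weak one of 16 in LHX4 and a poised one of 14 beside the cardiac homeobox gene NKX2-5, neither listed in PTS.

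Ligands and receptors of Wnt, BMP, FGF, Notch and Hedgehog signalling had poised promoter peaks at 9 of 103 genes (8.74%) and weak ones at 7 (6.80%), beside 2.30% and 9.82% of all genes. The poised ones were mostly ligand genes with OCT1 in vehicle only. WNT2 had 17, WNT7B 16, the Notch ligand gene DLL4 17 (chr15:41220813-41221077), BMP7 14 and the Hedgehog ligand gene DHH 15. FGF12, which encodes an intracellular member of the FGF family, was listed in both treatments with 15 in vehicle and 19.8 in PTS, a ratio of 1.32 (0.642 to 2.77). The weak ones included the Wnt receptor genes FZD1 and FZD4 and MAML1, a Notch coactivator gene with 18 in vehicle. PTCH1, the Hedgehog receptor gene, had weak regions of 16 and 14 listed only in vehicle and another of 14.8 only in PTS.

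Ion channel genes had a member peak at 16 of 164 genes (9.76%), close to all genes. The chloride channel gene CLCN2 and the magnesium channel gene TRPM6 had weak OCT1 regions of 21 in vehicle that were not listed in PTS. CHRNB2, a nicotinic receptor gene, had a poised region of 18 in vehicle only. KCNN3, a calcium-activated potassium channel gene, and HCN3, a pacemaker channel gene, were listed only in PTS, with 17.8 and 16.8.

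Cadherin and protocadherin genes stood out by count, with a weak promoter peak at 40 of 81 genes (49.4%). The long nested transcripts of the protocadherin clusters share peaks, so these genes came from only 13 weak OCT1 regions, 3 poised OCT1 regions and 1 weak DNMT3B region. Protocadherins are adhesion proteins of neurons, each chosen by its own promoter along the cluster on chromosome 5. In the cluster (chr5:140165720-140892548) 10 weak OCT1 regions were counted, 8 with 13 or more in vehicle and 3 in PTS.

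Along the cluster, weak promoter OCT1 regions of the alpha genes were listed in vehicle only. Outside promoter states the whole cluster held 99 OCT1 peaks of vehicle and 16 of PTS. Each region in this cluster is named after the last of the nested genes listed for it, so the name does not tell which promoter it marks. The region named PCDHA13, in an intron 72 bp from a start site, is listed for PCDHA1 to PCDHA13 and had 20. Those named PCDHAC1 had 18 and 15 and that named PCDHAC2 had 16. In the gamma genes PCDHGA1 had 20 in vehicle only and PCDHGC3 15, whereas PCDHGA3 and PCDHGA4 were listed in PTS only, with 20.8 and 17.8. PCDHGA8 was listed in both, with 16 and 16.8. Thus 1 of 8 vehicle regions reached 13 in PTS (12.5%, 2.24 to 47.1), beside 22 of 183 weak regions elsewhere on chromosome 5 (12%).

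**Figure D5:**
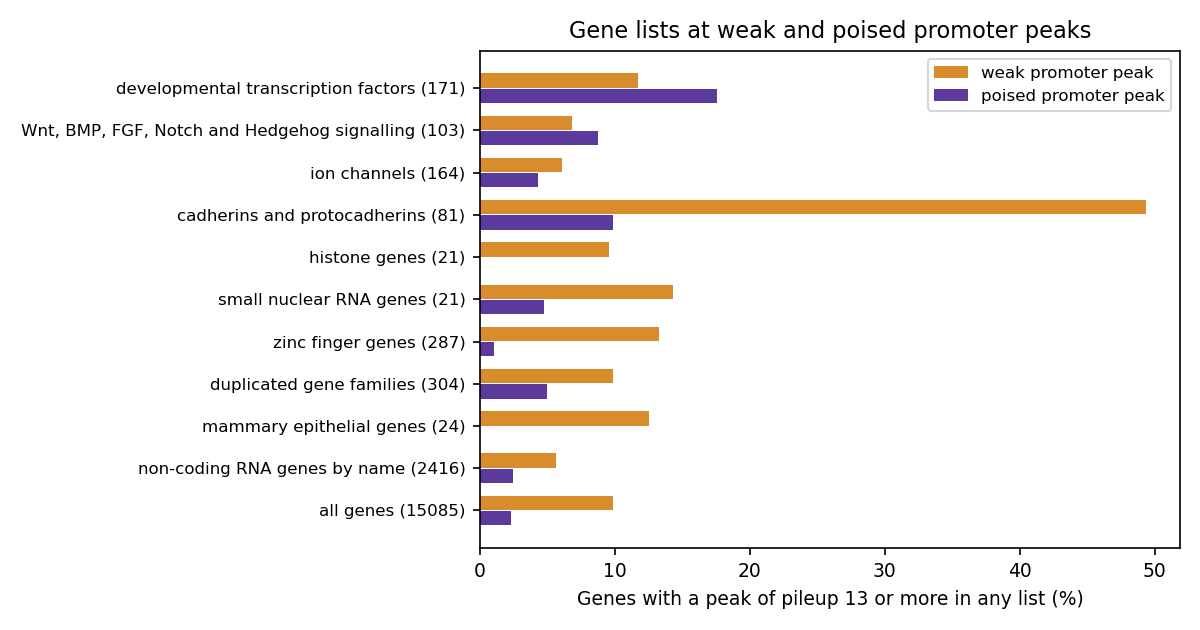
Share of the genes of each list (horizontal axis, percent) with a weak or a poised promoter peak of pileup 13 or more in any of the 4 peak lists; numbers in parentheses give the genes with any listed peak. Developmental transcription factor genes have a poised peak in 17.5% and all genes in 2.30%, and the 49.4% of cadherin genes with a weak peak share a few regions.

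The textbook targets of OCT1 and mammary genes had members at shares near the 11.7% of all genes. Of 21 histone genes 2 had one (9.52%), and of 21 small nuclear RNA genes 3 (14.3%). Among the latter, a weak OCT1 region 195 bp from RNVU1-8 had 18 in vehicle and was not listed in PTS. A poised OCT1 region 4076 bp from RNVU1-8, with 2 near-identical copies, had 17 in vehicle and 15.8 in PTS. A weak OCT1 region 1148 bp from RNU6-1 had 17 in vehicle and was not listed in PTS. Of 24 mammary epithelial genes 3 had one (12.5%), all OCT1 in weak promoters and in vehicle: KRT7, a luminal keratin gene, with 17, the oxytocin receptor gene OXTR with 16 and the integrin gene ITGB4 with 15. Zinc finger genes had a member at 41 of 287 genes (14.3%), duplicated gene families at 41 of 304 (13.5%) and non-coding RNA genes at 186 of 2416 (7.70%). Poised peaks were at 15 of the duplicated family genes (4.93%). ZNF687, a zinc finger gene, had a weak OCT1 region of 23.8 in PTS that was not listed in vehicle and another of 20 in vehicle that was not listed in PTS.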

How the data were processed

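DNMT3B and OCT1 ChIP sequencing was measured in MCF10CA1a cells. Per the study's methods, adapters were removed with cutadapt and reads were placed on GRCh37/hg19 by BWA. The authors called peaks and differential peaks with MACS2 and assigned genes with ChIPseeker. The peak names in the files show that the 3 replicates were pooled. The tools' versions are not given in the sources used here. The deposited pileup is a signal, the coverage of a summit by fragments, scaled by the authors in the PTS lists. The deposited fold is a ratio of pileup to 1 background per list, so no value of the other treatment enters it. The deposited −log10 p-values are from MACS2, and the deposited P-value is a score, 10 to the power of −x/10 of them.

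Each peak was counted once, by its first state. Treatments were compared over overlapping regions with 13 or more, by counts, Wilson and Newcombe intervals and exact binomial intervals of ratios, with exact order-statistic intervals of medians. With no replicate values, no test between treatments was run. On simulated data the 95% intervals held planted ratios of 0.5, 1 and 2 in 96.8%, 96.4% and 96.7%. The simulation did not require both pileups to reach 13, so this coverage is not shown for the regions compared here. Windows were 300 bases, copies were searched with minimap2 2.31-r1302, and exons came from GENCODE 44 lifted to GRCh37. Gene names are those assigned in the deposited lists, and some genes lie several kb from the region. Named genes were, per antibody and state, the 3 highest regions, the 3 highest and 3 lowest ratios, the 2 highest regions of 1 treatment only, up to 5 regions of both antibodies and up to 3 genes of each gene list, and others named were chosen after their values were seen. The members and gene lists were chosen with earlier results of these data known. Python 3.11.15, pandas 2.3.3, scipy 1.17.1, pysam 0.24.0 and matplotlib 3.10.9 were used. Alternatives varied the state rule, windows, score threshold, minimum, scaling, overlap, copies, window and motif. Input libraries and reads were not analysed here.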

Additional observations from a re-analysis of the deposited data

How the results depend on the processing

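No paired analysis was possible because each list pools the 3 replicates and carries no replicate numbers, and for the same reason no replicate could be left out. Of the values recomputed, 162 counted as unchanged, though 20 of these became over 1.5 times larger or smaller. Another 36 moved, 8 kept their direction with an interval that included 0, and 6 turned. Unchanged means the same direction and side of 0 for a difference between shares. For shares and median ratios it means a value inside the main interval. For counts and differences between medians it means a value near the main one. With the authors' score under 0.05, members numbered 13, 8, 30 and 13 in the DNMT3B vehicle, DNMT3B PTS, OCT1 vehicle and OCT1 PTS lists, with 53.8%, 50%, 46.7% and 61.5% poised, and under 0.01 they numbered 4, 3, 5 and 4, with 50% poised for DNMT3B vehicle. Counting any listed state gave 70 DNMT3B and 277 OCT1 members of PTS. At 13 or more without copies, 18.9% of OCT1 PTS members were poised. For DNMT3B the poised minus weak share reaching the minimum was 7.83 points at 15, 8.33 at 20, 7.62 with gaps of 200 bp, 5.17 without copies, 4.55 outside chromosomes 1, 3, 5 and 9, and −8.33 for vehicle pileups of 20 with a PTS peak listed at any pileup. At 20, 25% of weak and 33.3% of poised DNMT3B regions reached it, and with any state 10.4% of weak and 29.5% of poised ones reached 13, a difference of 19.2 points. Poised ones reached it in 8.70% without copies and 9.09% outside those chromosomes. The DNMT3B members minus rest became 0.467 points with any state and −5.80 at a GC of 55 to 65%, against −9.34 at 15, −27.5 at 20, −23 outside those chromosomes and −27.7 for the listing at any pileup. For OCT1, weak regions reached the minimum in 7.32% at 20, 3.92% with an overlap of 50%, 7.45% with any state and 1.17% outside those chromosomes, and poised regions in 26.2% at 20, 3.42% without copies, 11.8% with any state and 1.82% outside those chromosomes. The OCT1 poised minus weak share was 2.52 points with gaps, 0.650 outside those chromosomes and −1.20 without copies, but 4.76 at 15, 18.9 at 20, 4.36 with any state and 21.0 for the listing at any pileup, and members minus rest −9.86 at 20, −3.53 outside those chromosomes, −12.3 for the listing, 0.932 with any state and 1.57 at a GC of 55 to 65%. The median OCT1 ratio was 0.929 at 20 and 1.00 unscaled. Without copies, the poised minus weak share of OCT1 PTS peaks within 1 kb of a start site turned from −7.66 to 0.357 points, that of DNMT3B PTS peaks went from −8.79 to −28 and that of DNMT3B vehicle peaks from −10.5 to −2.76. Overlap with the other antibody for DNMT3B vehicle was 45% at 50% overlap and 61.5% with gaps, for DNMT3B PTS 69.2% at 20, and for OCT1 vehicle 5.20%, 8.60% and, at 20, 5.42%. ATGCAAA was in 2.11% of OCT1 vehicle, 2.73% of OCT1 PTS, 1.78% of DNMT3B vehicle and 7.32% of DNMT3B PTS members. The alternatives of chromosomes, listing at any pileup, GC, and member shares at 13 or more with or without copies were chosen after seeing the data. The cause of these changes was not tested beyond the smaller numbers of regions. The pooled depth limits single ratios, whose intervals all included 1.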
